A study of Canis lupus familiaris with 6 samples.

Results

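The lysosome genes described here were 55 genes chosen by function: GPNMB, a lysosomal and melanosomal membrane glycoprotein, together with lysosomal membrane proteins, cathepsins, subunits of the proton pump, hydrolases with their cofactors, and the 3 transcription factors TFEB, TFE3 and MITF. A gene was followed through the probes that carried its symbol in the array design, and where it had several probes the brightest by mean log2 signal over all 6 arrays represented it. On this rule 50 of the 55 genes were on the array, with 105 of 43603 probes. CTSF, CTSL, GRN, IDUA and LAMP3 had no probe under their own symbol. One gene on the array, ATP6V0D2, was not well above background on any array, which left 49 genes with a test, among 10171 named genes tested in all.

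The cells were MDCK, an epithelial line from dog kidney. All 6 samples came from one kind of MDCK cell, which carries a truncated β-catenin (mCherry-β-catenin Δ131) and a pTR construct that expresses GFP-RasV12, an active Ras oncoprotein, when tetracycline is added. The comparison asked how the surrounding cells altered the transcripts of these β-cat/RasV12 cells. In the single culture (3 arrays) they had only cells of their own line as neighbours, whereas in the mix culture (3 arrays) 10 MDCK mCherry-β-catenin Δ131 cells, which lack the Ras construct, were plated for each of them. Both cultures received tetracycline for 24 h and were then sorted for GFP, so that every sample shared the β-catenin construct, the Ras construct and the sort, and no parental MDCK sample was compared here. The labels do not say whether the lines were clones or whether the replicates came from separate cultures, and p-values therefore measure only the spread between these samples.

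Each array gave 43803 non-control spots, of which 61.1% to 65.7% were well above background. Replicate 1 of both cultures lay on one slide, here called slide 1, and the other 4 arrays lay on slide 2. Slide 1 was scanned at 3 µm per pixel and slide 2 at 5 µm, with different versions of the scanner software, which cannot be told apart from the slide. With the culture in the model, 27 of the 49 lysosome genes differed between the slides at an adjusted p under 0.05, as did 12557 of all 26623 probes tested. Each slide held both cultures in equal number, and the change on each slide is given beside the changes described. The epithelial markers were present as the label implies, with 7 of 7 on the array (CDH1, EPCAM, KRT18, CDH16, PAX8, OCLN and TJP1) well above background on all 6 arrays. None of the 7 was called in limma, and 6 had a change below 0. Their summed linear level ranged from 398.6 to 495.1 times the array's 75th percentile in the single cultures and from 315.3 to 401.2 times in the mix cultures, and CDH1, with a log2 change of -0.47, was called with the slide as a block (adjusted p of 0.0444). Of 7 principal-cell markers 5 were tested, all with a change below 0 and none called, and the summed level of the 7 ranged from 4.82 to 6.14 times in the single and from 4.45 to 5.47 times in the mix cultures. The part of these markers in the lysosome values was not tested.

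Lysosomes are acidic organelles in which proteins, glycans and lipids delivered by endocytosis or autophagy are broken down. The V-type proton ATPase acidifies the lumen, soluble cathepsins and glycosidases work at that pH, and heavily glycosylated membrane proteins line the limiting membrane and export the products. TFEB, TFE3 and MITF, the MiT/TFE family of basic helix-loop-helix leucine zipper factors, bind E-box-like elements in the promoters of many lysosomal genes and are held in the cytoplasm by mTORC1 when nutrients are plentiful. In kidney tubules, special forms of the proton pump also sit at the plasma membrane of intercalated cells, where they secrete acid. GPNMB is best known from macrophages, osteoclasts and pigment cells, and MITF is among the factors known to drive its transcription.

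The probes of GPNMB and MITF carried the largest differences in the set, and the stretches of transcript that they read are shown for that reason. Positions are those of the array design on CanFam3.1, and no exon or UTR annotation entered this work. 2 of the 3 GPNMB probes read as follows, both from the plus strand of chromosome 14 and with no base set in capitals. The first, at chr14:36933857-36934232, covers 376 bases of genome with its 60 bases and so joins separate stretches of the gene. The second, at chr14:36945953-36946012, is colinear with the genome. The third and brightest probe, A_11_P126571, lay 389 bases further on at chr14:36946402-36946461.

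A_11_P172008: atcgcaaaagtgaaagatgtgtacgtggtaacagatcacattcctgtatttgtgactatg

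A_11_P0000026828: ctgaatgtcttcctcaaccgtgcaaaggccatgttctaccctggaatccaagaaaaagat

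The 3 MITF probes came from the plus strand of chromosome 20. The first was at chr20:21784157-21784216 and the second at chr20:21840558-21840617. The third and brightest, at chr20:21864830-21870016, spread its 60 bases over 5187 bases of genome. The 3 probes did not overlap, so that each read a separate part of the transcript.

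A_11_P000002069: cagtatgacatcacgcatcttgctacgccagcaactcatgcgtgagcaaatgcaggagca

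A_11_P054406: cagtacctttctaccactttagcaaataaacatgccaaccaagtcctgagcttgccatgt

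A_11_P0000020047: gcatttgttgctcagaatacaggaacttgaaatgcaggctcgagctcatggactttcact

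GPNMB rose in the mix culture and was the only one of the 49 lysosome genes to pass the test. On its brightest probe the background-subtracted signal was 1.02, 0.956 and 0.97 intensity units in the 3 single cultures, below the lowest signal that counted as well above background on those arrays (4.19 to 4.33). In the 3 mix cultures the same probe gave 19.5, 25.7 and 18.6 intensity units, well above background on every array. The cultures did not overlap, and the lowest mix culture stood far above the highest single culture. Since the single cultures gave only background, the fold is a lower bound, and GPNMB was at least 4.75-fold higher in the mix culture. The bound sets the mean of the mix cultures against the higher of the probe's own signal and the lowest well-measured signal on each single-culture array. The arrays measured sorted bulk RNA, in which fewer cells that express a gene and less RNA per cell cannot be told apart.

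On the log2 scale relative to each array's 75th percentile, which is the scale of every level given from here on, GPNMB measured -7.52 ± 0.11 (SD, n = 3) in the single and -3.17 ± 0.38 (SD, n = 3) in the mix culture. The fitted change between these, 4.35 on the log2 scale (SE 0.22, 95% interval 3.83 to 4.87), had an adjusted p of 0.000614 in limma with Benjamini-Hochberg adjustment over all 26623 probes. It was 4.07 on slide 1 and 4.49 on slide 2. The single-culture values behind this fit were background, and the probe entered the test through the mix cultures alone. The SD of the single cultures, the SE, the interval and the p-value thus take background values as measured. The lower bound given above is the size to read. Of all named genes tested, 0.934% were called (95 of 10171), and 0.865% were called as higher, so that 1 call among 49 lysosome genes is near the share of the array as a whole.

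The second GPNMB probe gave the same direction. A_11_P0000026828 measured -6.25, -7.39 and -7.43 in the single cultures and -4.21, -3.93 and -3.81 in the mix cultures. It was well above background in the 3 mix cultures alone, at least 2.70-fold higher there, with a fitted log2 change of 3.04 (SE 0.33, adjusted p of 0.00919 in limma). As for the brightest probe, that change, its SE and its p-value take background values of the single cultures as measured. The highest of the single cultures, on slide 1, still lay below every mix culture. The probe furthest upstream, A_11_P172008, was not well above background on any array and was not tested. Its values were -7.85, -7.54 and -7.57 in the single and -6.76, -6.88 and -7.27 in the mix cultures.

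**Figure D1:**
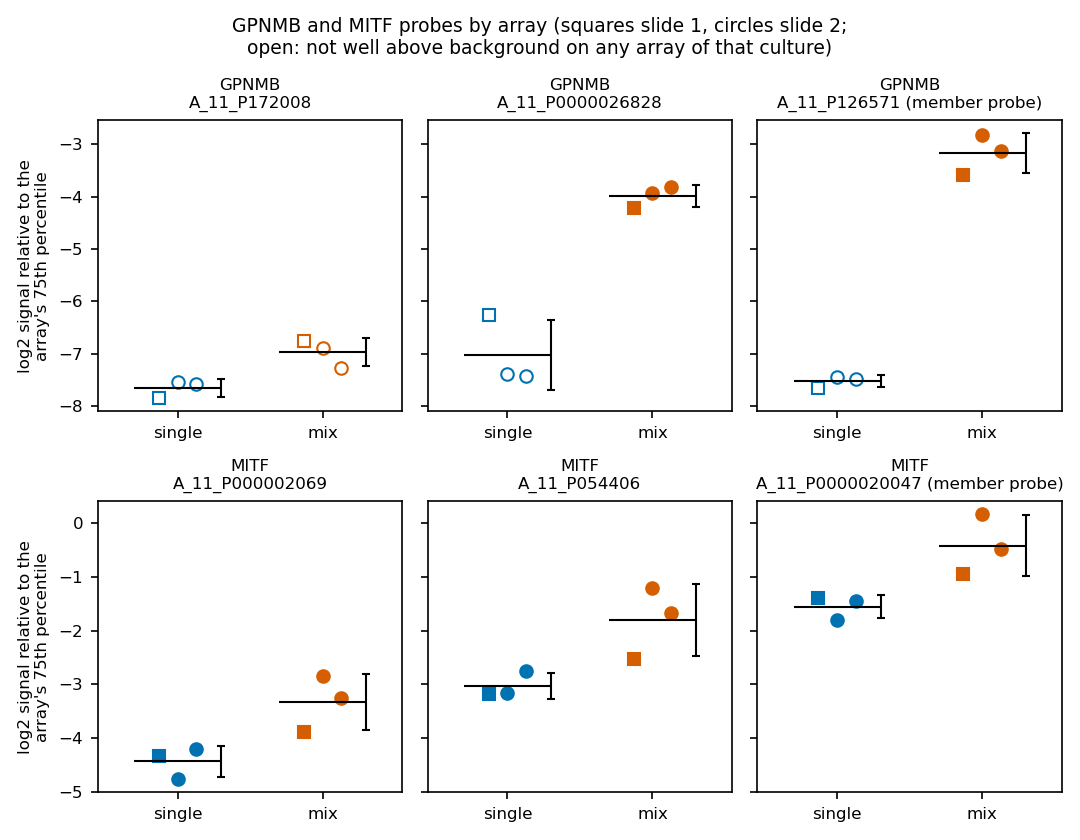
Level of each GPNMB and MITF probe on each array, as log2 signal relative to the 75th percentile of that array, for the single (blue) and mix (orange) cultures; squares are slide 1, circles slide 2, horizontal lines the mean of 3 arrays and bars the SD. Open symbols mark a culture in which the probe was not well above background on any array: the mix cultures of the 2 GPNMB probes to the right lie between -4.21 and -2.81, and those of all 3 MITF probes lie above the single cultures.

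Of the 3 transcription factors, MITF stood apart from TFEB and TFE3 in size but did not pass the test. Its brightest probe measured -1.40, -1.80 and -1.45 in the single cultures and -0.95, 0.17 and -0.47 in the mix cultures. Every mix culture lay above every single culture, with the slide 1 mix culture closest to them. The log2 change was 1.14 (SE 0.29, 95% interval 0.44 to 1.83), a 2.20-fold difference, with an adjusted p of 0.229 in limma. The change came to 0.45 within slide 1 and to 1.48 within slide 2.

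The other MITF probes differed by similar amounts. A_11_P000002069 measured -4.33, -4.77 and -4.21 in the single and -3.89, -2.85 and -3.25 in the mix cultures, a log2 change of 1.11 (adjusted p of 0.245, limma). A_11_P054406 measured -3.18, -3.16 and -2.75 in the single and -2.53, -1.21 and -1.67 in the mix cultures, a log2 change of 1.23 (adjusted p of 0.265, limma). In both, as in the brightest probe, the mix culture of slide 1 was the lowest of the 3 and the cultures did not overlap.

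Fitting the slide as a block changed the call for MITF. With the block the adjusted p values were 0.0337, 0.0327 and 0.0147 for the brightest, the first and the second MITF probe, all under the threshold. The block also raised the share of all named genes called to 7.45%, and 3 of the 49 lysosome genes were called with it, namely GPNMB, MITF and ATP6V1B2. With the replicate number as the block, GPNMB was the only one of the 49 called (adjusted p of 1.59e-05), against 5.45% of all named genes, and the brightest MITF probe had an adjusted p of 0.0524. Of the other MITF probes, A_11_P054406 was under the threshold with that block (adjusted p of 0.0269). These values rest on the numbers in the sample titles, and the deposited table has mix cultures 2 and 3 the other way round. With those 2 exchanged, an alternative chosen after seeing the data, 3 of the 49 were called, GPNMB, MITF (adjusted p of 0.0361) and ATP6V1B2 (adjusted p of 0.0407).

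TFEB, the factor most closely tied to lysosome formation, measured -2.81, -1.94 and -2.49 in the single and -2.78, -2.17 and -2.07 in the mix cultures (chr12:10368693-10368752, minus strand). The cultures overlapped, with a log2 change of 0.07 and a 95% interval from -0.60 to 0.75. TFE3 measured -1.15, -0.42 and -0.60 in the single and -1.06, -0.45 and -0.37 in the mix cultures (chrX:42181908-42181967, minus strand). Its log2 change was 0.10, with a 95% interval from -0.54 to 0.73, and its cultures overlapped too. Within slides the TFEB change was 0.02 on slide 1 and 0.10 on slide 2, and the TFE3 change 0.09 and 0.10. As each array was left out in turn, the TFEB change ran from -0.13 to 0.31 and the TFE3 change from -0.12 to 0.31. Leaving out an array makes the slides unequal between the cultures, and these fits had no slide term, so the ranges hold slide differences too. These are transcript levels, and where in the cell the proteins lay was not measured.

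Among the other 48 lysosome genes limma called 0, with 2 at an unadjusted p under 0.05, MITF on the higher side and MAN2B1 on the lower, against 8.5% of all named genes. The methods' t-test, unpaired and on the same values, called 0 of 49 after Benjamini-Hochberg adjustment, GPNMB included, against 0.0393% of all named genes. Without adjustment it called 6 of 49, against 9.63% of all named genes. Over the 49 genes 36 changes were above 0 and 13 below, with a median log2 change of 0.11. Over all named genes tested 41.2% were above 0, with a median of -0.05. For 35 of the 49 the 95% interval lay within a log2 change of 1 in either direction, and with the slide as a block this held for 47, the exceptions being GPNMB and MITF. The cultures did not overlap for 10 of the 49, 9 with the mix culture above and 1 with it below, against 16.4% of all named genes (7.54% above and 8.83% below).

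**Figure D2:**
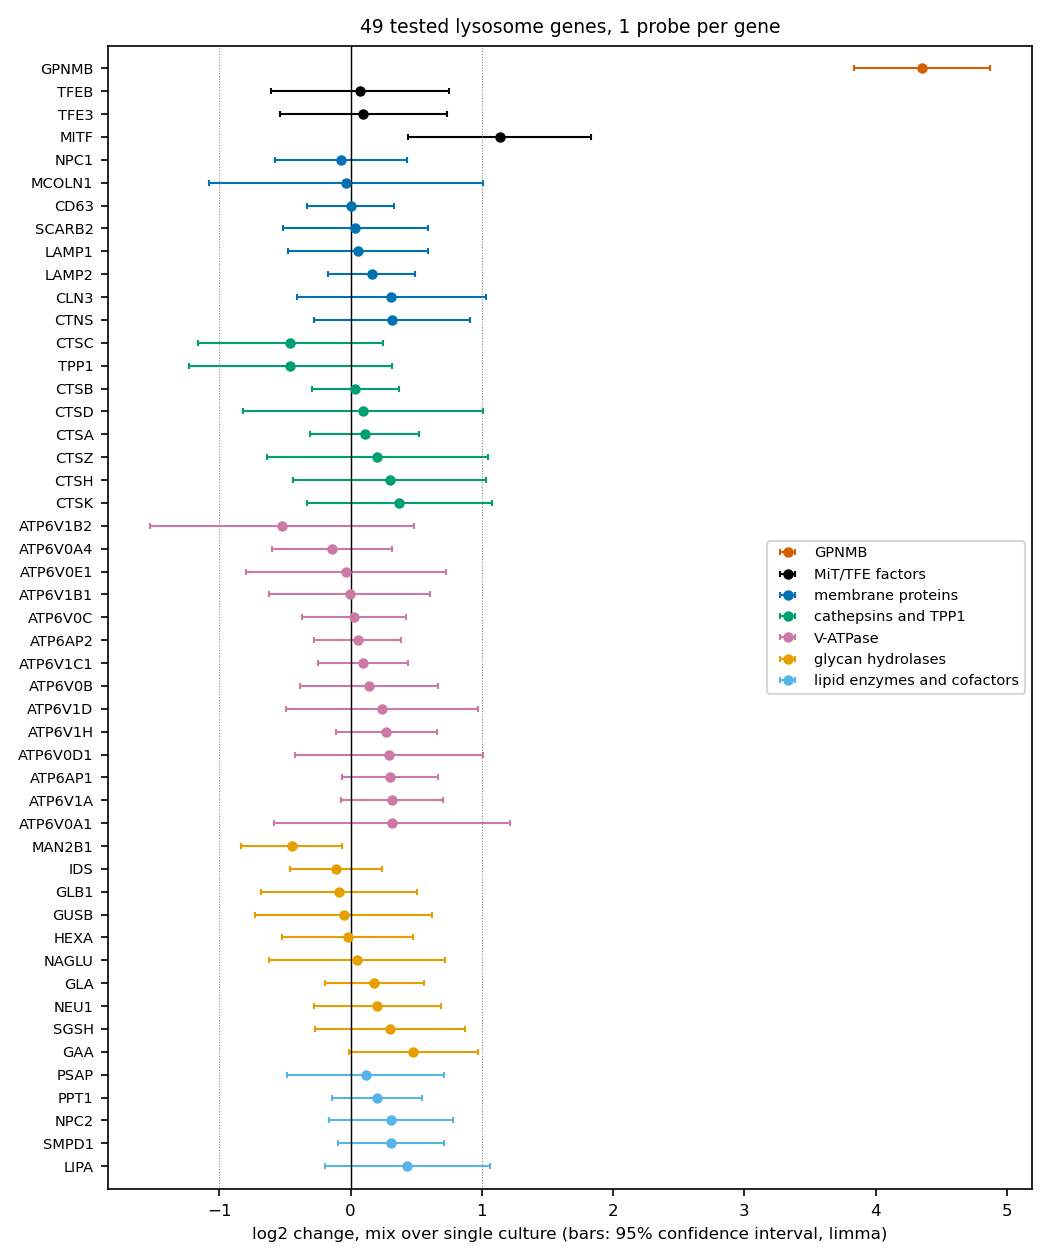
Log2 change of the 49 tested lysosome genes, mix over single culture, ordered by role and then by size within a role; points are limma's estimates from 3 arrays per culture and bars their 95% confidence intervals, with dotted lines at -1 and 1. GPNMB at 4.35 and MITF at 1.14 lie apart from the other 47, whose estimates run from -0.52 to 0.48. The GPNMB estimate and bar take background values of the single cultures as measured.

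The membrane proteins of the lysosome had log2 changes from -0.07 to 0.31, with none called of 8 tested and none at an unadjusted p under 0.05 in limma. LAMP1 and LAMP2, the abundant glycoproteins of the limiting membrane, had log2 changes of 0.06 (95% interval -0.48 to 0.59) and 0.16 (95% interval -0.17 to 0.49). All 4 LAMP1 probes lay between 0.06 and 0.19. CD63, a tetraspanin of late endosomes and lysosomes, measured 6.92, 6.82 and 6.75 in the single and 6.80, 6.86 and 6.83 in the mix cultures, and its log2 change of 0.001 had a 95% interval from -0.33 to 0.33.

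The cystine exporter CTNS had the largest difference of these 8 membrane proteins. It measured -3.54, -2.60 and -3.10 in the single and -2.83, -2.86 and -2.59 in the mix cultures (chr9:47489609-47490003, plus strand). The cultures overlapped, the log2 change was 0.31 (SE 0.25, adjusted p of 0.851 in limma), and it came to 0.70 on slide 1 against 0.12 on slide 2. CLN3, a membrane protein mutated in juvenile neuronal ceroid lipofuscinosis, had a log2 change of 0.31, SCARB2, the sorting receptor of β-glucocerebrosidase, 0.04, and NPC1, the cholesterol exporter, -0.07. The calcium channel MCOLN1 had the widest interval of the group, from -1.08 to 1.01.

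The cathepsins and TPP1, the proteases of the lysosome, were split in sign, 6 higher and 2 lower, with none of 8 called and none at an unadjusted p under 0.05 in limma. CTSC, also called dipeptidyl peptidase 1, measured 2.63, 1.58 and 1.80 in the single and 1.84, 1.30 and 1.49 in the mix cultures (chr21:11692897-11692956, plus strand). On each slide its mix cultures lay below the single cultures, with a difference of -0.78 within slide 1 and of -0.30 within slide 2, but across slides the cultures overlapped. The overall log2 change was -0.46 (SE 0.30, adjusted p of 0.791 in limma). Without replicate 1 of the single culture, which leaves slide 1 in the mix culture only, it was -0.15.

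TPP1, a tripeptidyl peptidase, gave a difference of the same size. It measured -4.66, -3.93 and -3.87 in the single and -5.21, -4.19 and -4.45 in the mix cultures (chr21:29921771-29921830, minus strand), a log2 change of -0.46 (SE 0.33, adjusted p of 0.819 in limma). Its changes within slides were near each other, -0.55 and -0.42, and with the slide as a block its adjusted p of 0.0503 was just past the threshold. The TPP1 probe was dim, at 6.30 to 11.8 intensity units over the 6 arrays, and with normexp background correction its change was -0.11. CTSK, the collagen-cleaving cathepsin best known from osteoclasts, measured -2.72, -1.66 and -1.73 in the single and -1.84, -1.53 and -1.63 in the mix cultures (chr17:59929353-59931270, minus strand). Its log2 change of 0.37 (SE 0.30, adjusted p of 0.852 in limma) came to 0.88 on slide 1 and 0.11 on slide 2. The single culture of slide 1 was the low value, and without it the change was 0.03, with slide 1 then in the mix culture only.

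The more broadly expressed cathepsins had smaller differences in value. CTSB had a log2 change of 0.04 with a 95% interval from -0.30 to 0.37, and CTSA, the protective protein of β-galactosidase and neuraminidase, 0.11, with its 4 probes between 0.03 and 0.11. CTSD, the main aspartic protease, had a log2 change of 0.10, but with a 95% interval from -0.82 to 1.01 that narrowed to -0.19 to 0.38 with the slide as a block. CTSH and CTSZ had log2 changes of 0.30 and 0.20.

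The V-ATPase, the proton pump of the lysosome, is built of a membrane sector (V0) and a catalytic cytosolic sector (V1). Of its 15 genes here 14 were tested, 10 with a change above 0 and 4 below, and none was called or reached an unadjusted p under 0.05 in limma. The median log2 change was 0.12. For 3 of the 14, ATP6V1A, ATP6V1H and the accessory subunit ATP6AP1, the mix cultures lay wholly above the single cultures, with log2 changes of 0.31, 0.27 and 0.30 and adjusted p values of 0.71, 0.771 and 0.699 in limma. The mix cultures lay wholly above in 7.54% of all named genes tested.

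ATP6V1B2, the B subunit of the V1 sector found in most tissues, had the lowest log2 change of the set on its brightest probe. It measured 4.90, 3.89 and 3.68 in the single and 4.41, 3.20 and 3.30 in the mix cultures (chr25:36834148-36834207, minus strand). The slides differed by more than the cultures did, so the cultures overlapped and the log2 change of -0.52 (SE 0.43) had an adjusted p of 0.856 in limma. Within slides the changes were -0.49 and -0.54, and with the slide as a block the adjusted p was 0.0278. Without each array in turn the change ran from -0.91 to -0.15, in fits with the slides unequal between the cultures. The other 2 ATP6V1B2 probes did not share this difference, with log2 changes of -0.002 and -0.08.

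ATP6V0A1, the a1 subunit of the membrane sector, measured -0.62, 0.60 and 0.27 in the single and -0.21, 0.67 and 0.74 in the mix cultures (chr9:20422635-20422694, minus strand). Its log2 change was 0.31 (SE 0.38, adjusted p of 0.934 in limma), with 0.41 within slide 1 and 0.27 within slide 2. Without replicate 1 of the single culture, which leaves slide 1 in the mix culture only, it was -0.037. The subunits typical of acid-secreting intercalated cells were read as well. ATP6V1B1 had a log2 change of -0.01 (95% interval -0.62 to 0.60) and ATP6V0A4 of -0.14 (95% interval -0.60 to 0.32), while ATP6V0D2 stayed between -7.62 and -7.19 on all arrays, not well above background. The markers of intercalated cells moved in part. Of 6 on the array, 4 (SLC4A1, SLC26A4, RHCG and KIT) were never well above background and FOXI1 had a log2 change of -0.04. CA2, the cytosolic carbonic anhydrase, rose by 1.27 on the log2 scale (SE 0.18, adjusted p of 0.029 in limma), and the summed linear level of the 6 went from a range of 3.71 to 5.17 times the array's 75th percentile in the single cultures to 10.5 to 11.3 times in the mix cultures. Only FOXI1 and CA2 were measured above background, so the rise of this sum is that of CA2 and not of the marker set. The part of these markers in the V-ATPase values was not tested.

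The hydrolases that degrade glycans and glycoproteins were evenly split, with 5 of 10 tested above 0 and 5 below, a median log2 change of 0.01 and none called. GAA, the acid α-glucosidase that breaks down glycogen, had the largest difference upward. It measured 2.76, 3.38 and 3.30 in the single and 3.74, 3.66 and 3.47 in the mix cultures (chr9:1601132-1601191, minus strand). The cultures did not overlap, and the log2 change was 0.48 (SE 0.21, adjusted p of 0.593 in limma), of which slide 1 gave 0.98 and slide 2 gave 0.23. The 2 other GAA probes tested gave log2 changes of 0.51 and -0.21, and so did not share a direction.

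MAN2B1, the lysosomal α-mannosidase, was the one gene of the 49 whose mix cultures lay wholly below the single cultures, against 8.83% of all named genes. It measured 3.57, 3.77 and 3.41 in the single and 3.01, 3.19 and 3.21 in the mix cultures (chr20:49460089-49460594, plus strand), a log2 change of -0.45 (SE 0.16, adjusted p of 0.477 in limma, 0.0729 with the slide as a block). Its other 2 probes, with log2 changes of 0.11 and -0.11, did not show it. GLB1, the lysosomal β-galactosidase, was read by 9 probes, and all 9 had log2 changes between -0.20 and -0.04, with none called.

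The lipid enzymes and cofactors were all above 0, 5 of 5 tested, with a median log2 change of 0.31, and none was called or reached an unadjusted p under 0.05 in limma. LIPA, the acid lipase that frees cholesterol and fatty acids from low-density lipoprotein, measured 2.51, 1.76 and 2.0 in the single and 2.96, 2.32 and 2.29 in the mix cultures (chr26:38892776-38892835, minus strand). Its change was alike on the slides, 0.45 on slide 1 and 0.43 on slide 2, but the cultures overlapped across slides. The overall log2 change of 0.43 (SE 0.27) had an adjusted p of 0.776 in limma and of 0.053 with the slide as a block. All 4 LIPA probes were above 0, from 0.22 to 0.63, and 1 of them was called with the block.

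NPC2, which hands cholesterol to NPC1, had a change of 0.31 on the log2 scale (0.33 within slide 1 and 0.30 within slide 2), and its second probe gave 0.30. SMPD1, the acid sphingomyelinase, measured 1.72, 1.75 and 1.36 in the single and 2.04, 1.86 and 1.85 in the mix cultures, a log2 change of 0.31 (SE 0.17, adjusted p of 0.738 in limma), and PPT1, the palmitoyl thioesterase, had one of 0.20. In both the mix cultures lay wholly above the single cultures, as they did for 7.54% of all named genes. PSAP, the precursor of the saposins, had log2 changes between 0.08 and 0.19 over its 5 probes.

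The probes of a gene mostly gave changes alike. Of 27 genes with several tested probes, 23 had all their probes on the same side of 0, and for 23 the probes spanned less than 0.5 on the log2 scale. The wider spans were those of GAA (0.72), MAN2B1 (0.55) and ATP6V1B2 (0.52), and that of GPNMB, which is not given because both of its tested probes had only background in the single cultures. Within slides, 35 of the 49 genes had the same sign on both, 27 of them above 0 and 8 below. Over all named genes 27.8% were above 0 on both slides and 43.5% below. The slides share no array, but slide 1 held only 1 array of each culture and its values carry no error of their own.

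**Figure D3:**
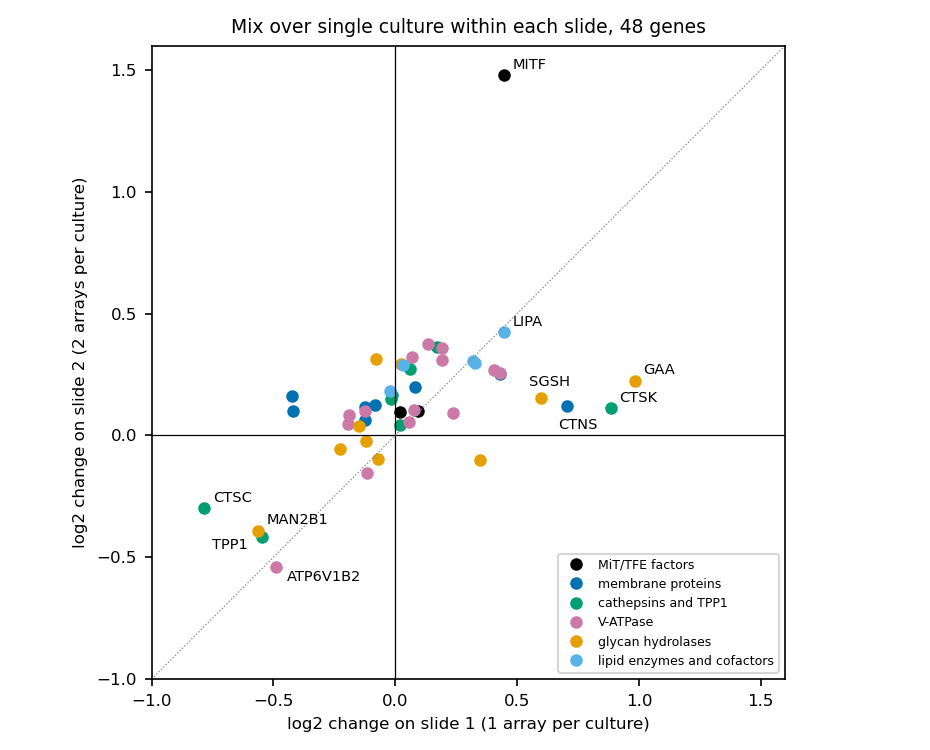
Log2 change of 48 tested lysosome genes, mix over single culture, on slide 1 (horizontal, 1 array per culture) against slide 2 (vertical, 2 arrays per culture), coloured by role, with GPNMB (4.07 and 4.49) left out and the dotted line marking equal change. MITF lay higher on slide 2 (1.48 against 0.45), whereas GAA, CTSK and CTNS lay higher on slide 1 (0.98, 0.88 and 0.70 against 0.23, 0.11 and 0.12).

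The wider lysosome and autophagy machinery was read from 7 further lists, with 117 of 151 genes tested. Cathepsin S (CTSS), a cysteine protease of antigen-presenting cells that trims the invariant chain, was the single gene called. This 1 call among 117 is near the share of all named genes called, 0.934%. CTSS measured -4.52, -4.65 and -4.40 in the single and -2.72, -1.82 and -2.86 in the mix cultures (chr17:59894206-59894265, minus strand), well above background on all 6 arrays and without overlap. CTSS rose by 2.06 on the log2 scale (SE 0.29), a 4.16-fold difference, with an adjusted p of 0.0243 in limma. The change was 1.80 on slide 1 and 2.18 on slide 2. The change was 0.51 with normexp background correction (adjusted p of 0.5), and by the methods' t-test the adjusted p was 0.231, so that the call was lost under both. It was also lost without replicate 1, 2 or 3 of the single culture or replicate 3 of the mix culture (adjusted p of 0.0606, 0.11, 0.119 and 0.0633, with changes from 1.99 to 2.25). In limma the call was kept with the slide as a block (adjusted p of 0.0029), with the replicate block (0.00362) and on slide 2 alone (0.0124). It was kept too without replicate 1 or 2 of the mix culture (adjusted p of 0.0408 and 0.0337 in limma). The normexp offset of 50 exceeds the CTSS signals on all arrays but mix culture 2 (51.2 intensity units). The methods' test with adjustment called 0.0393% of all named genes.

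CTSS came from the list of other hydrolases, where 27 of 30 genes were tested. The aspartic protease CTSE of the same list, chosen for mention after its values were seen, measured -2.80, -2.26 and -2.52 in the single and -3.80, -3.37 and -3.20 in the mix cultures. Its cultures did not overlap, and its log2 change of -0.93 had an adjusted p of 0.185 in limma, of 0.00368 with the slide as a block and of 0.00864 with the replicate number as a block (numbers as in the titles). With the replicate block the 7 lists together had 2 genes called, CTSS and CTSE, and with the slide block they had 6, against 7.45% of all named genes.

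In the remaining lists limma called none. The other V-ATPase genes (12 tested) had a median log2 change of 0.10, with 2 at an unadjusted p under 0.05 in limma, a level reached by 8.5% of all named genes. The other membrane proteins (18 tested) had a median of 0.20, with 1 at that level, and the sorting genes of the mannose 6-phosphate and vesicle fusion pathways (26 tested) had a median of 0.09, with 2. The mTORC1 arm, which controls the MiT/TFE factors, had a median of 0.01 over 14 tested. The autophagy genes had a median of -0.15 over 18 tested, 6 above 0 and 12 below. None of the mTORC1 or autophagy genes reached an unadjusted p under 0.05.

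**Figure D4:**
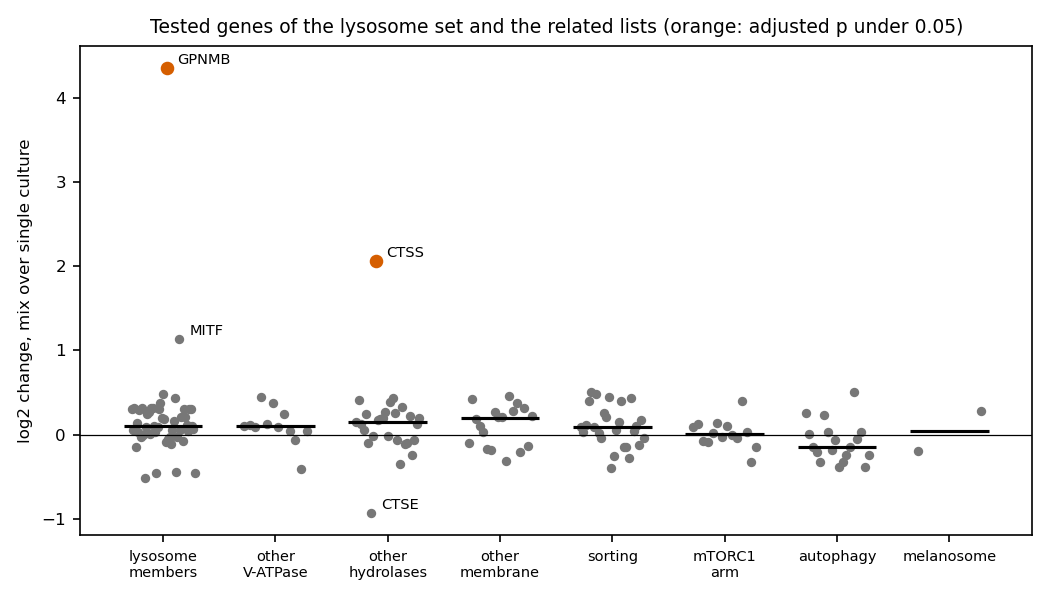
Log2 change, mix over single culture, of each tested gene in the lysosome set (49) and in 7 related lists (117 in all), with the median of each list as a horizontal line and genes at an adjusted p under 0.05 in limma in orange. GPNMB at 4.35 and CTSS at 2.06 are the called genes, and the medians lie between -0.15 and 0.20.

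GPNMB is a melanosome protein and MITF the master regulator of pigment cells, and most pigment genes were not at a measurable level in either culture. Of 10 melanosome genes on the array 2 were tested, PMEL with a log2 change of -0.19 and RAB27A with one of 0.27. TYR, TYRP1, MLANA and MLPH were not well above background on any array. DCT, RAB38, SLC45A2 and TRPM1 were so on 1 mix-culture array each. A level below the well-measured signal on these arrays cannot show a difference between the cultures.

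GPNMB and CTSS are also abundant in macrophages, so the macrophage markers were read beside them. Of 9 on the array, PTPRC, AIF1, CD163, MRC1, C1QA and C1QB were never well above background, and ITGAM was so on 1 array. CD14, well above background on all 6 arrays, had a log2 change of 0.06, and CSF1R one of -0.40. The summed linear level of the 9 ranged from 0.31 to 0.379 times the array's 75th percentile in the single cultures and from 0.334 to 0.371 times in the mix cultures. The ranges overlapped. Both cultures held cells of MDCK lines only. CD14 and CSF1R alone were tested, and how these markers relate to the GPNMB and CTSS values was not tested.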

How the data were processed

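RNA of sorted GFP-positive cells was labelled with Cy3 and hybridised to single-colour Agilent Canine (V2) 4x44K arrays. For each array the authors deposited its scanner file, which holds the intensity of every spot on a linear scale, background-subtracted by Agilent Feature Extraction (version 11.5.1.1 on slide 1, 12.1.1.1 on slide 2) and not scaled between arrays. They also deposited a table of log2 values whose steps are not given in the sources used here. Set against the scanner files, every probe had been centred slide by slide: the median was 0 within 0.02 for 100% of probes, both over the 2 columns of slide 1 and over the 4 of slide 2. The columns named for mix cultures 2 and 3 were exchanged.

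Control spots and spots flagged as outliers (5 to 9 per array) were left out, no spot was saturated, and spots of one probe were averaged as log2 values. Each array's 75th percentile was then subtracted. Tested were the 26623 probes that were well above background in all arrays of 1 or both cultures. The test was limma's (version 3.58.1, R 4.3.3), by lmFit and eBayes on the culture (two-sided, Benjamini-Hochberg over all probes tested, call at an adjusted p under 0.05). The procedure was also run on simulated data that had no background floor, and no result here rests on that run. The depth of an array is not counted in reads, and the 3 arrays per culture limit the precision.

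Groups and replicate numbers came from the sample titles. Same-numbered arrays of the cultures deviated together from their culture means, with correlations over probes of 0.801, 0.53 and 0.572. Arrays of slide 2 with different numbers did so more strongly (0.632 and 0.61), so the correlations do not single out the numbers of slide 2 as pairs. The main test was unpaired, and the numbers entered only as a block in an alternative fit. Alternatives were blocks for slide and replicate, each slide alone, other filters, probe averaging, normexp with an offset of 50, quantile normalization, the deposited table, mix cultures 2 and 3 exchanged in the replicate block (added after seeing the data), the methods' t-test and leaving out each array.

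The members, the related lists and the rules were chosen with earlier results of these data known. Genes named with full values were GPNMB, the 3 factors, every member called, the 10 largest changes among members well above background on all 6 arrays, up to 12 called with the slide block, members with a bound, and up to 3 called genes per related list. NPC2, SMPD1, ATP6V1A, CD63 and other members given by a change alone illustrate their group.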

Additional observations from a re-analysis of the deposited data

How the results depend on the processing

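The 1 lysosome gene called of 49 (0.934% of all named genes) became 3 with the slide as a block (7.45%), 3 with the replicate block and mix cultures 2 and 3 exchanged (5.63%), 2 on slide 2 alone (3.80%), 10 on the deposited table (15.5%), and 6 by the methods' t-test without adjustment (9.63%). The count was 0 by that test with adjustment (0.0393%), with normexp (0.472%), and among probes well above background on all 6 arrays (0.586%), where GPNMB is not tested. It was 1 with the replicate block (5.45%), with no filter (0.796%), with probe averaging (0.993%), with quantile normalization (0.944%) and without each array in turn (0.374% to 0.983%). The table is centred within slides, so a fit without a slide term there counts no degree of freedom for the slide. The 1 gene called of 117 in the related lists, to be read against the same shares, became 6 with the slide as a block, 2 on slide 2 alone, 2 with the replicate block (also with the exchange), 19 on the deposited table, 6 by the unadjusted t-test, 0 by the adjusted t-test and with normexp, and 0 to 1 without each array in turn. With the numbers of the titles, the replicate block changed no other call among the named genes.

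The GPNMB change stayed between 3.70 and 4.49 and called under 8 other settings. With normexp, whose offset of 50 exceeds the signals of this probe, it was 0.42 (adjusted p of 0.543 in limma), and by the methods' t-test it was 4.35 and lost the call (adjusted p of 0.0644). Without each array in turn it ran from 4.18 to 4.56, called each time. All of these fits take background values of the single cultures as measured, so they add nothing on the size of the change, which stays a bound. The median change of the lysosome genes, 0.11, was 0.03 on slide 1 alone and 0.18 on the deposited table, and ran from 0.06 to 0.23 without each array in turn. The median level of these genes had an SD of 0.26 between arrays of a culture. TFEB turned to -0.030 with normexp, and without each array in turn ran from -0.13 to 0.31. TFE3 ran from -0.12 to 0.31 and ATP6V0A1 from -0.037 to 0.62 in the same way, while CTSC ran from -0.67 to -0.15, TPP1 from -0.71 to -0.16, CTSK from 0.03 to 0.56, CTNS from 0.08 to 0.55, LIPA from 0.22 to 0.64, GAA from 0.28 to 0.59, MAN2B1 from -0.53 to -0.36 and MITF from 0.84 to 1.40, none called. Every fit without 1 array had the slides unequal between the cultures and no slide term, so its changes carry slide differences too. Tests on slide 1 alone were not possible with 1 array per culture. Signals near background limit what can be said of GPNMB in the single cultures to a bound.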

Other observations

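Probes described in the array design as 3 of the genes absent by symbol were looked up after the values of the set were known. The probe described as granulin (GRN), a secreted and lysosomal protein that is linked to neuronal ceroid lipofuscinosis, measured 6.01, 6.92 and 6.54 in the single and 6.21, 6.77 and 6.94 in the mix cultures, a log2 change of 0.15 (SE 0.29, adjusted p of 0.966 in limma). The cultures overlapped. The 3 probes described as IDUA, the α-L-iduronidase, had log2 changes of 0.15, 0.17 and 0.29, with adjusted p values in limma of 0.947, 0.893 and 0.695. A probe described as a cathepsin L, on the X chromosome in the design, had a log2 change of 0.16 (SE 0.26, adjusted p of 0.957 in limma), and the probe named CTSL3 was not well above background on any array.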
